A study of Ramazzottius varieornatus with 48 samples.

Results

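The last sampling of the Long time course, 72 h after exposure to ultraviolet C (UVC) light, was compared with the non-exposed animals of the same time course in the tardigrade Ramazzottius varieornatus. The comparison rests on 6 libraries of the 48 in the series, 3 from exposed animals collected at 72 h and 3 from non-exposed animals collected at 0 h, and on the 12088 transcripts of 14532 whose mean over the 48 libraries was at least 1 TPM, a transcript's share of the RNA measured, corrected for its length and scaled to the same total in every library. Both groups are whole-body samples of strain YOKOZUNA-1 reared on Chlorella in the dark at 22 °C, with 30 animals pooled in each library and polyadenylated RNA sequenced. The exposed animals were placed without covering water under a UVC lamp at 0.54 mW/cm2 by the labels, then returned to water. For the Long time course the study's methods give a slightly higher intensity. The exposed animals were fed at 12 h by the same methods, so exposure, feeding and time in culture cannot be told apart in this comparison. The study chose the 3 libraries of each group by RNA integrity. The Long libraries at 48 h and the non-exposed libraries of the separate Short time course, 3 of each, are set beside the results. The p-values measure the spread between pools of animals, and nothing in the labels says whether the pools came from separate exposures. The study's methods describe replicates of exposed animals, with 30 drawn at each sampling. Libraries of 72 h and 48 h may therefore share an exposure.

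UVC is absorbed by DNA and links neighbouring pyrimidines, and it also gives rise to reactive oxygen species. Cells answer with photolyase, excision repair and strand break repair, and with enzymes that remove peroxides and superoxide. R. varieornatus is an anhydrobiotic animal, one that survives almost complete loss of water, and tardigrades make cytosolic and secretory abundant heat soluble proteins (CAHS and SAHS) that remain soluble on heating. Protein names below are those of the closest Swiss-Prot match that the study gave, mostly a protein of another species, and a transcript without such a match is given by its identifier. In whole animals, fewer cells of a type and less RNA per cell cannot be told apart.

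At 72 h, the transcripts higher than in non-exposed animals included 13 of 19 cytosolic ribosomal proteins, 6 of 14 proteases with a trypsin fold, 5 of 9 CAHS and SAHS proteins and Cu-Zn superoxide dismutase. Most members of these lists were chosen because the study listed them as higher in the same 72 h animals. The transcripts that were lower were nearly all without a protein name. Names were available only for transcripts that the study called higher at some time point, so nothing is read from that. The fold change is on the log2(TPM + 1) scale, and a call needed a Benjamini-Hochberg adjusted p under 0.05 in limma and a difference of more than 1 on that scale, in either direction. Without scaling of the libraries, 256 transcripts were called higher at 72 h, 2.12% of those tested, and 1031 were called lower, 8.53% (10.6% in either direction). After every library was shifted to a common median deviation, 390 were called higher (3.23%) and 464 lower (3.84%), 7.06% in either direction. The scaling added 0.24 to every log2 fold change and moved the median of all tested transcripts to 0.11, against -0.14 without it.

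Of the calls, 247 higher (2.04% of those tested) and 464 lower (3.84%) were made both without and with scaling, and no transcript was called in opposite directions. Lower calls thus outnumbered higher calls by far without scaling and by little with it. The 567 transcripts called lower only without scaling had a median log2 fold change of -1.52, and with scaling 111 of them had a difference of no more than 1 and 556 had an adjusted p of 0.05 or more. The 143 called higher only with scaling had a median of 1.01 without it and 1.25 with it. Among the higher in both, 76 had a protein name, against 2 of the lower in both. The names come from tables of the study that list only transcripts it called higher at some time point.

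**Figure D1:**
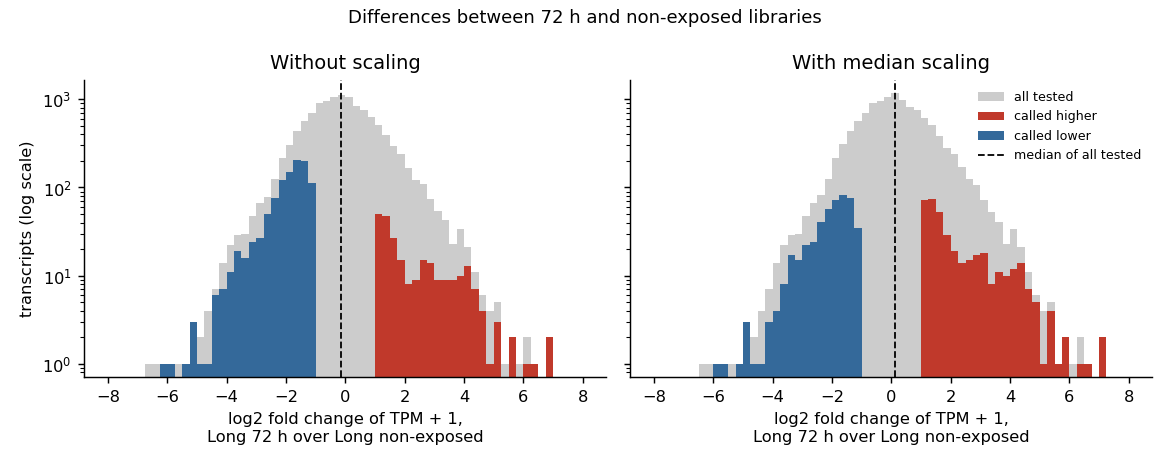
Number of transcripts (vertical axis, log scale) by log2 fold change of TPM + 1 for Long 72 h over Long non-exposed, without scaling at left and with median scaling at right, with the transcripts called higher in red, those called lower in blue and the median of all 12088 as a dashed line. Without scaling 1031 are lower and 256 higher, and with scaling 464 are lower and 390 higher.

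The counts moved when single libraries were left out. Leaving out each of the 6 libraries in turn gave 86 to 267 higher and 317 to 917 lower without scaling, with the lowest counts without 72 h replicate 1 (86 and 317). Without 72 h replicate 2 they were 118 and 484, and without non-exposed replicate 2 they were 186 and 580. With scaling the counts were 112 higher and 89 lower without 72 h replicate 1, 142 and 93 without 72 h replicate 2, and 212 and 110 without non-exposed replicate 2. Using only the 6 libraries compared gave 271 higher and 488 lower. The Long libraries share 1 estimate of the spread, and 24 h replicate 1 stood apart from the others, with 792 of the 7238 abundant transcripts listed at 0, where abundant means a mean of at least 20 TPM. A fit without it, chosen after seeing the data, gave 466 higher and 1292 lower.

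Among the same abundant transcripts, 33, 46 and 30 were listed at 0 in the 72 h libraries, against 166, 255 and 163 in the Long non-exposed libraries. The files hold no counts, so the depth behind each value is unknown, and a 0 can be a failed estimate as well as an absent RNA. Of the 247 transcripts higher in both, 99 were listed at 0 in at least 1 Long non-exposed library and 54 in all 3. Leaving out every transcript at 0 in a compared library gave 194 higher and 1182 lower without scaling.

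The non-exposed animals of the Short time course had median levels between those of both Long groups. The median level of the 247 higher in both was 128 TPM at 72 h, against 43.3 TPM in Long non-exposed and 85.5 TPM in Short non-exposed animals. For the 464 lower in both it was 17.7 TPM at 72 h, against 74.8 TPM and 42.0 TPM. In 127 of the 247, all 72 h libraries lay above all Short non-exposed libraries, where 8.31% of tested transcripts did so. In 294 of the 464 all lay below, where 14.7% of tested transcripts did so. Both sets were chosen on their 72 h values, so shares above those of all transcripts are expected from the choice, and nothing is read from them. The Short animals also belong to another time course.

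The transcripts with the largest rises were mostly listed at 0 in non-exposed animals. By the naming rule, which asked for calls with and without scaling, no overlap between groups and a mean of at least 20 TPM in the higher group, 8 of the 12 largest were at 0 in all 3 Long non-exposed libraries, and 11 of the 12 had no protein name. The largest, g2936.t1, had 167, 136 and 82.8 TPM at 72 h and was listed at 0 in each Long non-exposed library (adjusted p = 0.00145 in limma). It was also low in the Short non-exposed animals, at 2.61, 37.1 and 32.2 TPM, so its 72 h libraries lay above both non-exposed groups. By contrast g8328.t1 had 149, 179 and 246 TPM at 72 h, against 0, 8.97 and 0 TPM in Long non-exposed and 246, 419.6 and 177 TPM in Short non-exposed libraries. The 72 h and Short non-exposed values of this transcript overlap, while the 72 h and Long non-exposed values do not. Of the 12, 5 lay above all Short non-exposed libraries.

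Isoform assignment entered 2 of the 12. g10836.t2 had 90.6, 157 and 97.0 TPM at 72 h and was at 0 in the Long non-exposed libraries. The other isoform of the gene, g10836.t1, had 173, 91.7 and 159 TPM at 72 h, against 205, 310.3 and 132 TPM in Long non-exposed libraries. With the isoforms summed, the gene was no longer called. For g9157.t1 the libraries had 25.9, 27.6 and 57.9 TPM at 72 h and 0 in non-exposed animals, while g9157.t2 had 25.8, 19.0 and 0 TPM at 72 h, against 59.0, 108 and 90.7 TPM in non-exposed animals, and the sum of both turned the direction of the difference. The reads of such isoforms are shared out by the quantification, so a change of 1 isoform cannot be told apart from a change in that sharing.

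The largest falls left transcripts at or near 0 in some 72 h libraries. g7310.t1 was listed at 0 in all 72 h libraries and had 59.7, 81.3 and 31.3 TPM in Long non-exposed libraries (adjusted p = 0.00224 in limma). g2093.t1 had 69.8, 4.98 and 14.7 TPM at 72 h, against 323, 377 and 506 TPM in Long non-exposed libraries, with a log2 difference of -4.40 ± 0.82 (SE, adjusted p = 0.00387). Both transcripts were also high in the Short non-exposed libraries, at 174, 173 and 66.7 TPM for g7310.t1 and 599, 551 and 733 TPM for g2093.t1. g2849.t1 fell likewise, with 10.2, 8.45 and 33.4 TPM at 72 h, against 237, 493 and 281 TPM (log2 fold change -4.39 ± 0.73, adjusted p = 0.00244). In 10 of the 12 largest falls all 72 h libraries lay below all Short non-exposed libraries too. None of the 12 had a protein name, but names were available only for transcripts that the study called higher at some time point.

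One gene had an isoform called in each direction, g9229. Its isoform g9229.t2, the largest fall by fold, had 0, 0 and 0.333 TPM at 72 h, against 83.6, 52.5 and 124 TPM in Long non-exposed libraries. Its isoform g9229.t1 had 8.44, 18.4 and 36.4 TPM at 72 h and was at or near 0 in each Long non-exposed library. With the isoforms summed g9229 was not called, and the call of g9229.t2 was lost without any 1 of the 6 libraries other than 72 h replicate 3.

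**Figure D2:**
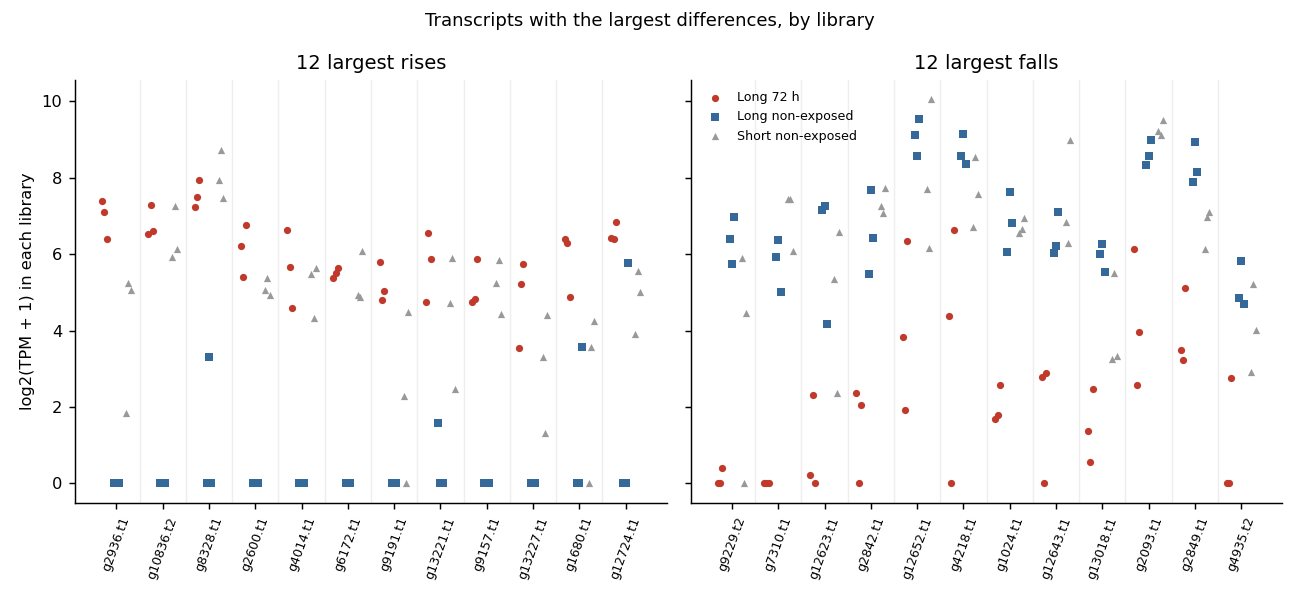
Log2(TPM + 1) in each library (vertical axis) for the 12 largest rises at left and the 12 largest falls at right, with Long 72 h as circles, Long non-exposed as squares and Short non-exposed as triangles. Most squares of the rises lie at 0, and the triangles of several rises, such as g8328.t1, lie among the 72 h circles.

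By amount of RNA, the largest rises were in transcripts already abundant. g12459.t1 had 8170.2, 8959 and 9781 TPM at 72 h, against 4631, 3359.8 and 4369 TPM in non-exposed animals, with a log2 difference of 1.13 ± 0.32 (SE, adjusted p = 0.0324 in limma). g4313.t1 had 3395, 3741 and 3301.2 TPM, against 1334, 914 and 867 TPM (log2 fold change 1.77 ± 0.27, adjusted p = 0.00153). The groups do not overlap for either transcript, and the call of g4313.t1 held under every alternative tried while that of g12459.t1 was lost when any of the 6 libraries was left out. The largest fall by amount was g10647.t1, with 1405, 1223 and 1680.5 TPM at 72 h, against 4194, 6244 and 5111 TPM (log2 fold change -1.84 ± 0.31, adjusted p = 0.00244). Of the 6 largest falls by amount, g773.t1, g12902.t1, g4531.t1 and g10095.t1 were not called with median scaling.

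Named transcripts were grouped into 20 lists by protein function, 247 transcripts in all. These members were taken from the study's own tables, so their direction is not independent evidence, and the counts describe which of them also passed limma on TPM. Of the 108 members that the study listed for the Long 72 h animals, 53 were called higher without scaling and 64 with it, and their median log2 fold change was 1.30. Of the 139 listed only for other time points, none was called higher without scaling, 12 were with it, and 3 were called lower without scaling. The median of these 139 was 0.20. Over all tested transcripts the median was -0.14, and 2.12% were called higher without scaling and 3.23% with it. Shares of list members above these can come from the choice of the lists, so nothing is read from them.

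Several transcripts whose closest match is a protease, carboxypeptidase, amylase or lipase were higher at 72 h. Whether they have a digestive role in this animal was not tested. Chymotrypsin-like proteases, carboxypeptidases, amylases and lipases are made in the gut of animals, where they break down food. Of 14 proteases with a trypsin fold, 6 were called higher without scaling and 9 with it, and the median log2 fold change of the list was 1.34. Their summed level was 16250.0, 14677 and 12762 TPM at 72 h, against 7393, 4301 and 6243 TPM in Long non-exposed libraries. Every 72 h sum lay above every non-exposed sum, those of the Short time course included, which were 6196, 6494 and 7364 TPM. Over all tested transcripts, 2.12% were called higher without scaling and 3.23% with it. Of the 14, 10 were taken from the study's list for the same 72 h animals, so nothing is read from these counts and sums.

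The match to kallikrein-8, g8526.t1, had 2609, 2622 and 2093.2 TPM at 72 h, against 1060.2, 575 and 748 TPM in non-exposed animals (log2 fold change 1.66 ± 0.29, SE, adjusted p = 0.00291 in limma). Chymotrypsinogen A, g631.t1, had 2354, 2110.0 and 1975 TPM, against 914, 483 and 901 TPM (log2 fold change 1.54 ± 0.30, adjusted p = 0.00501). Both calls held under every alternative, as did that of chymotrypsinogen B, g629.t1 (log2 fold change 1.41). The plasminogen match g3140.t1, among the 6 largest rises by amount, had 4743, 3465 and 2840.2 TPM at 72 h, against 1543, 845 and 1418 TPM, and its call was lost without 72 h replicate 1. Members of such families resemble each other, so reads may have been split between them.

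Among the other matches, alpha-amylase 1 (g3301.t1), which cleaves starch, had 1102, 1022 and 855 TPM at 72 h, against 409, 289 and 342 TPM in non-exposed animals. Its log2 fold change was 1.52 ± 0.22 (SE, adjusted p = 0.00145 in limma), and the call held under every alternative. It was 1 of 2 called higher among 15 glycosidases, where 7 were called with scaling. Carboxypeptidase B, which removes basic residues from the end of a peptide, rose in both its transcripts, g9084.t1 with 1431, 1262 and 1173 TPM at 72 h, against 602, 484 and 535 TPM, and g9083.t1 with 820.1, 713.03 and 666 TPM, against 320.3, 309.7 and 378 TPM. They were the 2 called of 10 carboxypeptidases and aminopeptidases, and both calls were lost without 72 h replicate 1 or without non-exposed replicate 2. Of 9 lipases 2 were called higher, both matches to inactive pancreatic lipase-related protein 1, and 4 with scaling.

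Astacins are secreted zinc proteases that digest food or process matrix proteins. Of 8, 3 were called higher with and without scaling, where 3.23% and 2.12% of all tested transcripts were. From the study's list for the same 72 h animals came 5 of the 8, so nothing is read from this count. The nas-14 match g11193.t1 was the most abundant of the 3, with 3333, 3735 and 2672 TPM at 72 h, against 2075, 1188 and 1383 TPM in non-exposed animals (log2 fold change 1.09 ± 0.30, SE, adjusted p = 0.0278 in limma). The nas-4 match g3921.t1 had 261, 221 and 234 TPM, against 71.7, 32.7 and 98.5 TPM, and its call held with each library left out but was lost with only the 6 libraries compared in the fit. The call of g11193.t1 was lost without 72 h replicate 1 or 2 or non-exposed replicate 2 or 3, and that of the third, the nas-13 match g3910.t1, without any 1 of the 6 libraries. Another nas-13 match, g11190.t1, had 351, 313 and 194 TPM at 72 h and was at or near 0 in 2 of 3 non-exposed libraries, with 80.3 TPM in the other. It was not called (adjusted p = 0.0729 in limma). The other isoform of its gene, g11190.t2, had 230, 230 and 258 TPM at 72 h, against 274, 231 and 240 TPM in Long non-exposed libraries. The sum of both isoforms was 582, 543 and 452 TPM at 72 h, against 274, 231 and 320 TPM.

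**Figure D3:**
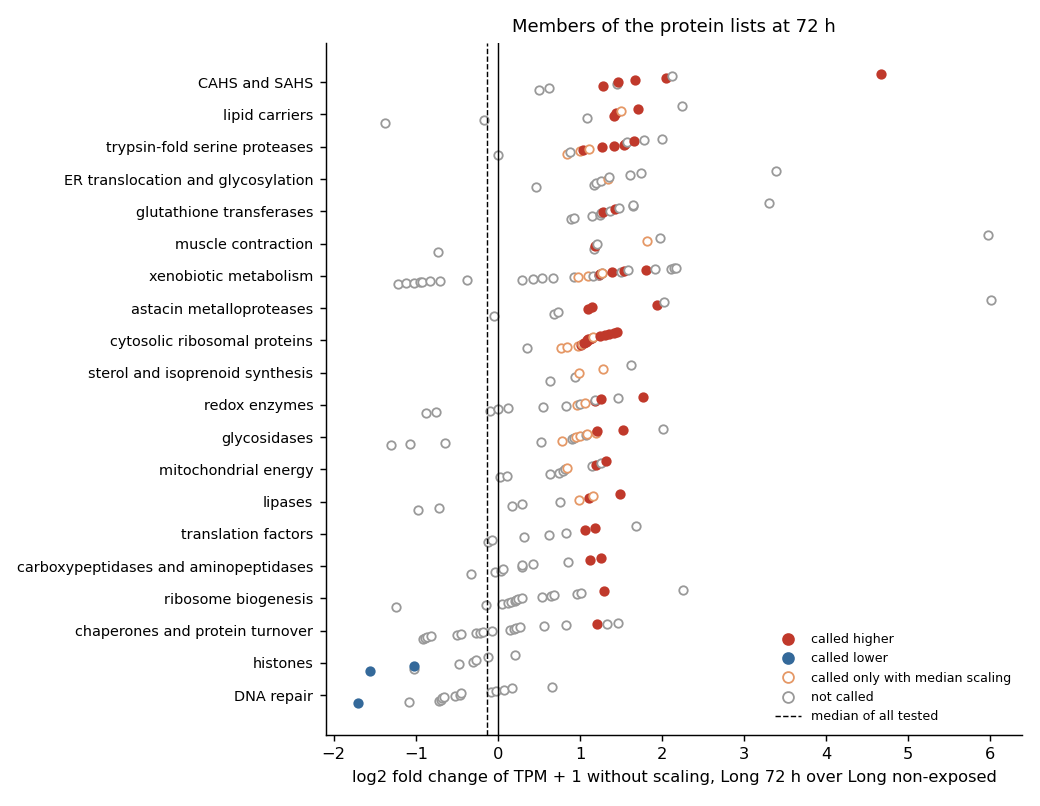
Log2 fold change of TPM + 1 without scaling, Long 72 h over Long non-exposed (horizontal axis), for each tested member of the 20 protein lists, with lists ordered by their median. Filled red points were called higher and filled blue points lower, orange rings were called only with median scaling, and the ribosomal list has the most filled points, 13 of 19.

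Cytosolic ribosomal proteins were the list with the most calls. All 19 members had a positive log2 fold change, 13 were called higher without scaling and 16 with it, and in 17 the 72 h libraries lay above all Long non-exposed libraries. The share over all tested transcripts was 10.3%, but 16 of the 19 were taken from the study's list for the same 72 h animals, so nothing is read from that difference. Their summed level was 20125, 13455 and 14187 TPM at 72 h, against 8602, 6836 and 7228 TPM in Long non-exposed and 11062, 10143 and 10921 TPM in Short non-exposed libraries. The log2 fold changes of the called members lay between 1.01 (L19) and 1.45 (L35a). L35a, g1727.t1, had 1181, 865 and 519.9 TPM at 72 h, against 463, 163 and 341 TPM (log2 fold change 1.45 ± 0.31, SE, adjusted p = 0.0081 in limma). Its groups do not overlap, and its call was lost without 72 h replicate 1, as was that of L22, g5612.t1. Both were also lost with only the 2 groups in the fit. The call of S27, g3622.t1, was lost without any 1 of the 72 h libraries or non-exposed replicate 2 or 3. That of S26, g3257.t1, was lost without 72 h replicate 1 or 2 or non-exposed replicate 1 or 3.

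Other parts of the translation machinery also had members called higher, where 2.12% of all tested transcripts were without scaling and 3.23% with it. From the study's list for the same 72 h animals came 3 of 8 translation factors and 3 of 16 ribosome biogenesis proteins, so nothing is read from their counts. Elongation factor 1-delta, g12592.t1, which helps reload the factor that brings aminoacyl-tRNA to the ribosome, had 1186, 1060.3 and 964 TPM at 72 h, against 469, 649 and 437 TPM. RACK1 (g9779.t1, guanine nucleotide-binding protein subunit beta-2-like 1), a protein of the small ribosomal subunit, had 699, 425 and 404 TPM, against 237, 230.2 and 186 TPM. These were 2 of 8 translation factors called. Of 16 ribosome biogenesis proteins only nucleolar protein 16 (g6613.t1) was called, and of 9 proteins of endoplasmic reticulum translocation and glycosylation none was without scaling. All 9 had positive log2 fold changes, but 7 were taken from the study's list for the same 72 h animals, so nothing is read from that. Sec61 gamma, g13246.t1, part of the channel through which secreted proteins enter the endoplasmic reticulum, had 2982, 3492 and 1320.3 TPM at 72 h, against 1421, 938 and 893 TPM (adjusted p = 0.05004 in limma, just above the threshold, and 0.0562 with scaling).

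CAHS and SAHS transcripts are among the abundant RNAs of this animal, and in the 72 h libraries they summed to 13742, 10027 and 9247 TPM, against 4099, 5404 and 4499 TPM in Long non-exposed libraries. Of 9 members, 7 were taken from the study's list for the same 72 h animals, so nothing is read from the counts and sums. Called higher were 5 without scaling and 4 with it, where 2.12% and 3.23% of all tested transcripts were. The CAHS 2 match g5971.t1 had 3291, 2671 and 2500.0 TPM at 72 h, against 643, 968 and 1096 TPM (log2 fold change 1.67 ± 0.30, SE, adjusted p = 0.00334 in limma), and the call held under every alternative. The other CAHS 2 match, g675.t1, had 3071, 1429 and 1659 TPM at 72 h, against 556, 407 and 448 TPM (log2 fold change 2.05 ± 0.47, adjusted p = 0.011). Replicate 1 was the highest of its 72 h libraries, and the call was lost without it.

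A further CAHS match, g7798.t1 (Swiss-Prot entry CAHS3_HYPDU), had 1647, 914 and 978 TPM at 72 h, against 467, 355 and 425 TPM, and was not called with scaling (adjusted p = 0.0554). Among the secretory proteins, SAHS 2 (g1680.t1) had 83.1, 77.3 and 28.5 TPM at 72 h, against 0, 0 and 10.9 TPM in Long non-exposed libraries, and was the 1 protein with a name among the 12 largest rises. Its call was lost without 72 h replicate 1 or 2, without non-exposed replicate 1 or 2, and with a pseudocount of 0.1. The call was also lost with only the 2 groups in the fit. At 48 h g1680.t1 averaged 12.8 ± 2.04 TPM (SD, n = 3), below every 72 h library, but no transcript was called between 72 h and 48 h. A different SAHS 2 match, g1675.t1, named after its values were seen, was far more abundant, at 2815 ± 360.4 TPM at 72 h and 2056 ± 733 TPM in non-exposed animals (SD, n = 3 each), and was not called (adjusted p = 0.539).

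Antioxidant enzymes remove superoxide and peroxides. Of 15 redox enzymes 3 were called higher without scaling and 5 with it, where 2.12% and 3.23% of all tested transcripts were. From the study's list for the same 72 h animals came 6 of the 15, so nothing is read from these counts. Cu-Zn superoxide dismutase, g456.t1, had 595, 507 and 419.6 TPM at 72 h, against 114, 203 and 137 TPM in non-exposed animals, with a log2 difference of 1.77 ± 0.22 (SE, adjusted p = 0.00129 in limma). Every 72 h library lay above every non-exposed library of either time course, and the call held under every alternative. Peroxiredoxin-2, g6996.t1, which reduces peroxides with electrons from thioredoxin, had 1392, 1097 and 1068 TPM, against 455.6, 641 and 482 TPM (log2 fold change 1.18 ± 0.21, adjusted p = 0.00287), a call lost with quantile normalization alone. Thioredoxin-2, g11519.t1, had 2976, 2064 and 1779 TPM at 72 h, against 925, 1508 and 1065 TPM, and passed the threshold on the fold only with scaling (log2 fold change 0.96 without and 1.20 with it).

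Glutathione transferases attach glutathione to reactive compounds. All 12 tested had a positive log2 fold change, with a list median of 1.32, and 2 were called under both scalings. Of the 12, 6 were taken from the study's list for the same 72 h animals, so nothing is read from the shared direction. The most abundant, glutathione S-transferase Mu 1 (g4017.t1), had 1691, 1888 and 1779.6 TPM at 72 h, against 719, 703 and 781 TPM (log2 fold change 1.28 ± 0.22, SE, adjusted p = 0.00271 in limma), and was still called under every alternative. In Short non-exposed animals it had 1068, 1397 and 1311 TPM, between the groups. Of 31 other proteins of xenobiotic metabolism 5 were called higher, and 8 with scaling, where 2.12% and 3.23% of all tested transcripts were. From the study's list for the same 72 h animals came 15 of the 31, so nothing is read from these counts. Dihydrobenzenediol dehydrogenase, g13139.t1, had 223, 225 and 210.2 TPM at 72 h, against 54.9, 74.0 and 59.3 TPM, and cytochrome P450 3A24, g3940.t1, had 287, 276 and 248 TPM, against 102, 126 and 114 TPM.

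Of 8 lipid carriers 3 were called higher without scaling, where 2.12% of all tested transcripts were. From the study's list for the same 72 h animals came 6 of the 8, so nothing is read from this count. The apolipoprotein D match g6328.t1, a lipocalin that binds small lipids, had 2336, 2290.2 and 2277 TPM at 72 h, against 929, 716 and 955 TPM in non-exposed animals (log2 fold change 1.42 ± 0.25, SE, adjusted p = 0.00287 in limma). A further apolipoprotein D match, g231.t1, had 1001, 777 and 790.1 TPM, against 347, 356 and 141 TPM, and the myelin P2 match g12679.t1, a fatty acid binding protein, had 1441, 1199 and 1348 TPM, against 682, 367 and 469 TPM. Of these calls, only that of g6328.t1 held under every alternative.

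**Figure D4:**
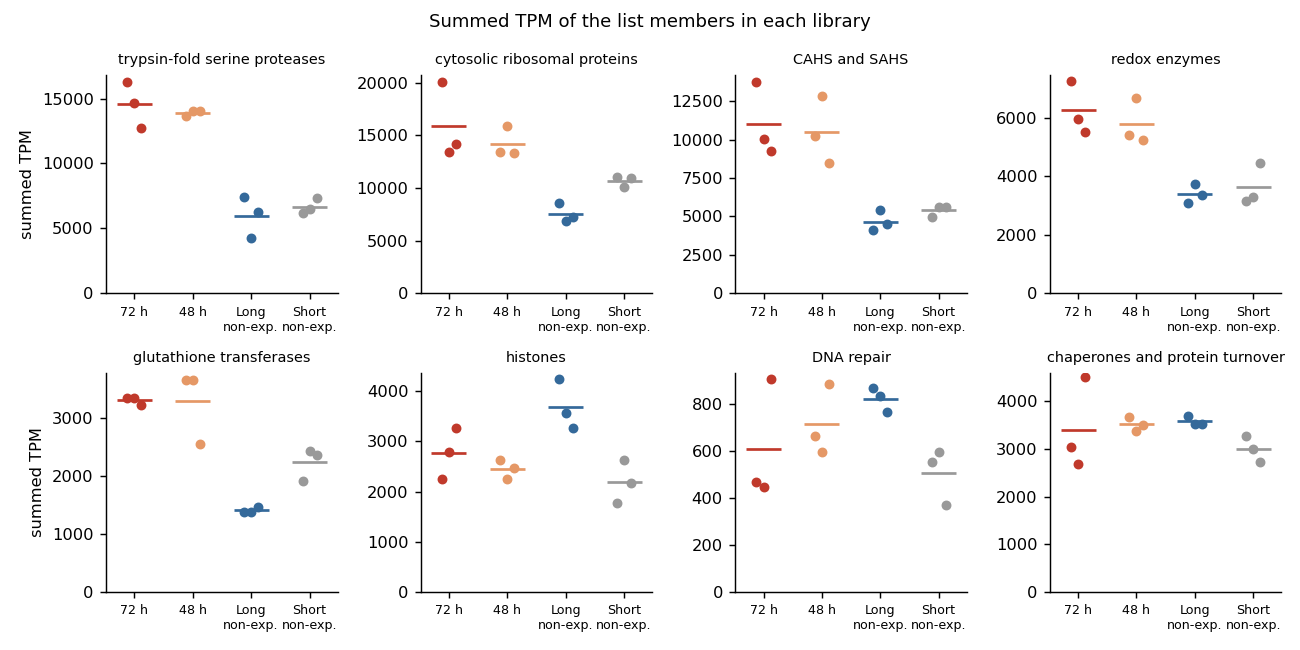
Summed TPM of the members of 8 lists (vertical axis, from 0) in each of 3 libraries, with the mean as a bar, for Long 72 h, Long 48 h, Long non-exposed and Short non-exposed animals from left to right. The sums of proteases, ribosomal proteins, CAHS and SAHS, redox enzymes and glutathione transferases are higher at 72 h than in both non-exposed groups, and those of DNA repair and chaperones overlap. Many members of the lists with higher sums were taken from the study's list for the same 72 h animals, so their direction is not independent evidence.

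DNA repair proteins act on the lesions that UVC leaves. All 14 tested were listed by the study for other time points only, a class in which none of the 139 members of any list was called higher without scaling. None of the 14 was called higher under either scaling, where 2.12% of all tested transcripts were without it, and 1 was called lower, where 8.53% were, so these counts do not set the list apart. Of the 14, 11 had a negative log2 fold change. The 1 called lower was DNA cross-link repair 1A (g7411.t1), with 12.2, 18.1 and 37.1 TPM at 72 h, against 58.6, 78.9 and 69.98 TPM in Long non-exposed libraries (log2 fold change -1.71 ± 0.37, SE, adjusted p = 0.00842 in limma). Its 72 h values overlap those of Short non-exposed animals, 26.3, 42.2 and 19.6 TPM, and the call was lost without 72 h replicate 1. Poly [ADP-ribose] polymerase 2-A, g7793.t1, which marks broken DNA, had 88.7, 46.5 and 146 TPM at 72 h, against 75.9, 111 and 84.8 TPM, and the groups overlap. The photolyase g7472.t1, named after its values were seen, averaged 27.2 ± 12.3 TPM at 72 h and 47.3 ± 25.1 TPM in non-exposed animals (SD, n = 3 each, adjusted p = 0.305 in limma). The list summed to 469, 448 and 905 TPM at 72 h, against 866, 834 and 767 TPM in Long non-exposed and 554, 597 and 370.4 TPM in Short non-exposed libraries. 72 h replicate 3 was above, and the other 72 h libraries below, every Long non-exposed library, and the median log2 fold change of the list was -0.50, and -0.25 with scaling.

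Histones, likewise listed only for other time points, gave 2 lower calls of 8 without scaling and none with it. Over all tested transcripts, 8.53% were called lower without scaling and 3.84% with it, and with 8 members nothing is read from the difference. Histone H2B type 1-K, g7501.t1, had 310.1, 386 and 308 TPM at 72 h, against 989.7, 546 and 567 TPM in Long non-exposed and 325, 359 and 389 TPM in Short non-exposed libraries. Macro-H2A.1, g312.t1, had 30.8, 27.1 and 126 TPM at 72 h, against 114, 145 and 171 TPM, with 72 h replicate 3 above the lowest non-exposed library. Of 19 chaperones and proteins of protein turnover 1 was called, heat shock protein 70 B2 (g13851.t1), higher at 265, 219.7 and 119.7 TPM, against 98.2, 58.3 and 97.1 TPM. Sequestosome-1, g422.t1, an autophagy receptor, had 510.4, 564 and 1243 TPM at 72 h, against 675, 536 and 624 TPM, with 1 high library at 72 h and overlap between the groups.

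Some muscle and mitochondrial transcripts were called higher, where 2.12% of all tested transcripts were without scaling and 3.23% with it. From the study's list for the same 72 h animals came 5 of 7 muscle and 4 of 11 mitochondrial members, so nothing is read from these counts. Myophilin, g4753.t2, an actin-binding protein of muscle, had 334, 282 and 299 TPM at 72 h, against 107, 123 and 182 TPM, and was the 1 called of 7 muscle transcripts, although not with its isoforms summed. Tropomyosin, g7288.t1, had 981, 1035 and 762 TPM, against 517, 86.4 and 391.97 TPM, and was called only with scaling (adjusted p = 0.0298 in limma). Its gene has 5 isoforms, whose sum was 1463, 1478 and 1530.1 TPM at 72 h, against 1008, 1212 and 1553 TPM in non-exposed animals, with overlap. Subunits f (g4373.t1) and O (g676.t1) of the mitochondrial ATP synthase were the 2 called of 11 mitochondrial energy transcripts, g4373.t1 with 762, 784 and 705 TPM at 72 h, against 252, 240.2 and 448 TPM. None of 5 sterol and isoprenoid synthesis transcripts was called without scaling and 2 were with it.

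Among the transcripts the study followed up by identifier, 3 were looked at here, g12777.t1, g2856.t1 and g241.t1. Only g241.t1 of these passed the test, with 483, 372 and 257 TPM at 72 h, against 82.9, 72.5 and 80.3 TPM in Long non-exposed and 71.5, 137 and 104 TPM in Short non-exposed libraries (log2 fold change 2.18 ± 0.30, SE, adjusted p = 0.00145 in limma). The call held under every alternative. g2856.t1 had 373, 321 and 238 TPM at 72 h, against 184, 148 and 111 TPM in Long non-exposed libraries, without overlap, and missed the threshold (adjusted p = 0.0764, 0.0887 with scaling). g12777.t1 had 423, 276 and 314 TPM at 72 h, against 272, 308 and 192 TPM (adjusted p = 0.708), and the groups overlap.

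No transcript was called between 72 h and 48 h in limma, with or without scaling. The smallest adjusted p was 0.104 without scaling and 0.0637 with it, and 271 transcripts, 2.24%, had an unadjusted p under 0.05 without scaling and 256, 2.12%, with it. Leaving out 1 library gave 0 to 10 higher and 0 to 5 lower, with 10 higher and 2 lower without 48 h replicate 3 and 5 lower without 72 h replicate 3. Across transcripts, which are not independent of each other, the mean Spearman correlation of a 72 h library with the other 72 h libraries was 0.895 to 0.898, and that of a 48 h library with the 72 h libraries was 0.894 to 0.898, against 0.751 to 0.774 for a 72 h library with the Long non-exposed libraries. The correlation among the non-exposed libraries themselves was 0.771 to 0.782, in the libraries with more transcripts listed at 0.

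Transcripts called at 72 h had median levels between those of both ends at 12 h to 48 h. The median level of the 247 higher in both was 43.3 TPM at 0 h, 89.8 at 12 h, 92.6 at 18 h, 88.3 at 24 h, 101.5 at 36 h, 117 at 48 h and 128 at 72 h. That of the 464 lower in both was 74.8, 56.4, 47.7, 64.7, 39.1, 26.8 and 17.7 TPM at the same times. The ends of both series are set by the choice of the transcripts, and the levels between them are given as a description. The higher ones were chosen as low at 0 h in the Long libraries, and in Short non-exposed animals their median was 85.5 TPM, close to the 12 h level.

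Single transcripts took other courses. Superoxide dismutase g456.t1 averaged 151 ± 46.1 TPM at 0 h, 215 ± 15.0 at 24 h, 425 ± 91.2 at 36 h and 507 ± 87.5 at 72 h (SD, n = 3). g241.t1 was highest at 36 h, with 121 ± 25.0 TPM at 24 h, 692 ± 137 at 36 h, 448 ± 147 at 48 h and 371 ± 113 at 72 h. Alpha-amylase 1 and CAHS 2 g5971.t1 also had their step between 24 h and 36 h. Among the falls, g4474.t1 averaged 3151 ± 1249 TPM at 24 h, 1176 ± 218 at 36 h and 618 ± 191 at 72 h.

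**Figure D5:**
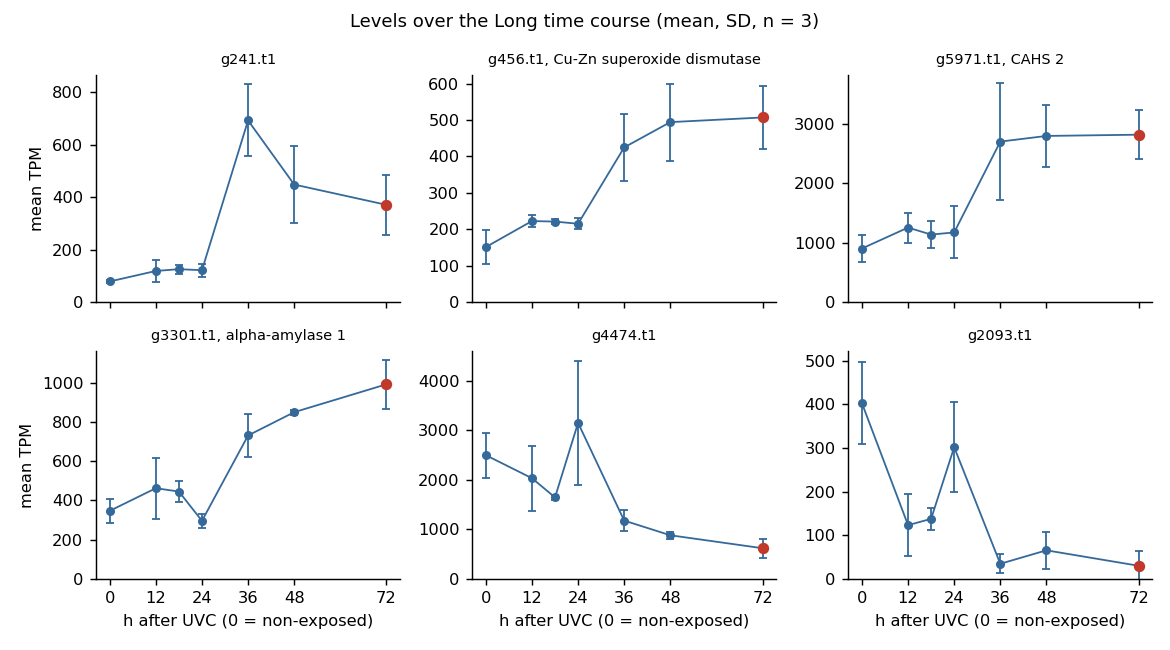
Mean TPM (vertical axis, from 0, error bars SD, n = 3) against hours after UVC, with the non-exposed animals at 0 h and the 72 h value in red, for 4 transcripts that were higher and 2 that were lower at 72 h. g241.t1 has its highest mean at 36 h, and superoxide dismutase, CAHS 2 and alpha-amylase 1 stay high at 48 h and 72 h.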

How the data were processed

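Poly(A) RNA was sequenced from whole animals, and the authors quantified the reads with kallisto (with bias correction) against their own gene set and deposited TPM for 14532 transcripts in each of 48 libraries, each with the same total. TPM keeps no counts, so the depth per library is unknown, precision was taken from the spread between libraries, and limma replaced the count test of the study, whose own fold changes were not used. Groups and replicates came from the sample titles, and all columns matched a sample.

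log2(TPM + 1) was fitted with limma 3.58.1 in R 4.3.3 (eBayes with trend) over the 21 Long libraries, for transcripts with a mean of at least 1 TPM over all libraries, with and without median scaling. p-values were Benjamini-Hochberg adjusted within a comparison, and a call took an adjusted p below 0.05 together with a log2 fold change beyond 1 in either direction. Figures were drawn with matplotlib 3.10.9. The fit was tested on simulated data.

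Named transcripts were the 12 largest rises and falls called under both scalings without overlap and with at least 20 TPM in the higher group, and the 6 largest rises and falls in mean TPM. Added to them were up to 4 called members of each list or the most abundant where fewer were called. The last were g12777.t1, g241.t1 and g2856.t1, which are among the transcripts the study followed up. They made 88 in all, 78 of them called. Rises and falls from 48 h to 72 h were to be named too, and none was called. Any further transcript named was picked with its values known. The members and lists were chosen with earlier results of these data known. Identifiers in the table did not match the locus tags of the gene table used here, so no sequence or position is given. Alternatives were other pseudocounts, filters, scalings, fits and each library left out.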

Additional observations from a re-analysis of the deposited data

How the results depend on the processing

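Of the 78 called among the 88 named transcripts, 26 were called under every alternative, 43 were lost when at least 1 compared library was left out, 30 were lost with only the 2 groups in the fit, and 7 with median scaling. Only g9157.t1 turned round, to a log2 fold change of -0.67 with isoforms summed, which adds g9157.t2, with lower values at 72 h. For 72 h against non-exposed animals, median scaling gave 390 higher and 464 lower, against 256 and 1031, quantile normalization gave 536 lower, and only the 2 groups compared gave 488 lower, or 225 with median scaling, an alternative chosen after seeing the data. Without 24 h replicate 1, also chosen after seeing the data, 466 were higher. Leaving out each compared library gave 86 to 267 higher and 317 to 917 lower, and with median scaling, again chosen after seeing the data, 112 to 360 higher and 89 to 371 lower, lowest without 72 h replicate 1. Between 72 h and 48 h the counts were 0 and 0, array weights gave 8 higher and 17 lower, no filter 1 higher and 8 lower, and a pseudocount of 0.1 gave 1 lower. With a library left out they were 0 to 10 higher and 0 to 5 lower. For these, and for the other counts, the cause was not tested.

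Same-numbered libraries at 72 h and in non-exposed animals did not deviate together (correlations of -0.029, -0.058 and -0.037), so the numbers were not taken to pair them. The replicate block gave 234 higher and 941 lower, and with median scaling 352 higher and 351 lower, and it called none between 72 h and 48 h.

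The limits are the missing depth, the zeros of the non-exposed libraries, non-exposed animals at 0 h only, and 3 libraries a group, for which an exact permutation test could not go below 0.10.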

Other observations

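Several transcripts with a protein name that belong to none of the lists were also called, and the following were chosen after their values were seen. Of the 76 named transcripts called higher under both scalings, 26 were in no list. Aquaporin-5, g8550.t1, a water channel, had 289.8, 208 and 283 TPM at 72 h, against 99.9, 96.4 and 111 TPM in Long non-exposed libraries (log2 fold change 1.32 ± 0.24, SE, adjusted p = 0.00342 in limma). The beta-2 subunit of the sodium/potassium ATPase, g6146.t1, had 235, 259 and 247 TPM, against 117, 119.8 and 56.1 TPM (adjusted p = 0.00654). The calcium-binding protein calbindin-32, g12851.t1, had 182, 179 and 117 TPM at 72 h, against 16.4, 80.1 and 45.6 TPM (adjusted p = 0.0139). For each of these 3 all 72 h libraries also lay above all Short non-exposed libraries.

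Without scaling, 17 transcripts with a name were called lower. Among them, spectrin alpha chain, g12438.t1, had 21.5, 46.5 and 72.6 TPM at 72 h, against 127, 118 and 124 TPM in Long non-exposed libraries, and spectrin beta chain, g3303.t1, had 26.7, 42.0 and 57.0 TPM, against 125, 112 and 108 TPM. Dystrophin, g10342.t1, which ties the cytoskeleton to the membrane of muscle, had 13.2, 26.1 and 33.1 TPM at 72 h, against 61.7, 65.9 and 65.9 TPM. The RNA polymerase II subunit RPB2, g6704.t1, had 14.8, 18.0 and 37.7 TPM at 72 h, against 66.3, 56.7 and 57.4 TPM, and the epidermal growth factor receptor match, g713.t1, had 11.5, 16.5 and 30.9 TPM, against 64.2, 56.4 and 38.3 TPM. All 5 were lowest in 72 h replicate 1 and overlapped the Short non-exposed libraries, and none was called with median scaling (adjusted p = 0.0971, 0.0874, 0.0578, 0.0597 and 0.0611 in limma, in the order given). The SUMO ligase PIAS3, g1743.t1, had 15.7, 16.5 and 27.4 TPM at 72 h, against 73.3, 51.7 and 80.4 TPM, and was called lower under both scalings, with overlap with the Short non-exposed libraries.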
